A study of Callithrix jacchus with 4 samples.

Results

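The substantia nigra pars compacta was compared between the first hours and the later days after a single dose of MPTP, over all 18014 measured genes of 18014 and all 4 samples of the series. For each gene, the mean of the arrays at 2 h and 6 h was set against the mean of the arrays at 1 day and 14 days. The study used 5 male common marmosets (Callithrix jacchus) aged 3 years. A single animal was given vehicle (n = 1), and the other 4 each received 2.5 mg/kg MPTP intravenously: 1 was killed at each of 2 h and 6 h, the hours side, and 1 each after 1 day and after 14 days, the days side. MPTP was injected, and the animals were killed, under pentobarbital. A strip of nigra, which holds neurons, glia and vessels alike, was cut out by laser, its RNA was amplified in 2 rounds, and the MPTP RNA (Cy5) was hybridised together with the vehicle RNA (Cy3) on an oligonucleotide array designed for human transcripts. No array had its dyes swapped. All values below are log2 ratios of MPTP over vehicle, centred on the median of each array, and a difference is the mean at hours minus the mean at days, in which the shared vehicle RNA cancels.

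MPTP is a neurotoxin that glial monoamine oxidase B converts to MPP+. The dopamine transporter SLC6A3 carries MPP+ into dopamine neurons, where it inhibits complex I of the mitochondrial respiratory chain. The dopamine neurons of the nigra are the cells most exposed to it, and their loss gives the motor signs of parkinsonism. Tissue injury commonly brings a first wave of immediate early transcription factors, followed by chaperones, metal-binding proteins and cytokines, while slower changes accompany cell loss and gliosis.

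The side "hours" held 2 animals and the side "days" 2 animals, and the animals of a side were killed at different times, so the spread within a side is a spread over time as well as between animals. The arrays were not alike in width: the SD of the gene values was 0.71 and 0.57 on the arrays at 2 h and 6 h, and 0.48 and 0.47 on those at 1 day and 14 days. Between 2 h and 6 h, 1600 genes (8.88%) differed at least 2-fold, and between 1 day and 14 days 864 genes (4.80%). Between the means of the sides, 662 genes (3.67%) differed at least 2-fold. Exact zeros made up 4.70% to 7.38% of the features of an array. The dopamine transporter gene SLC6A3, a defining marker of the tissue, was listed at 0 on all 4 arrays. A table of ratios gives no level of any marker in any sample, so the labelled tissue could not be checked by expression.

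Both hours arrays lay above both days arrays for 3817 genes (21.2%), and below both for 3597 genes (20.0%). Among these, 206 genes (1.14%) were at least 2-fold higher at hours and 267 genes (1.48%) at least 2-fold lower. The median difference over all genes was 0.00. limma's moderated test called 0 genes in either direction at an adjusted p under 0.05 (0.0%), with a smallest adjusted p of 0.646. At an unadjusted p under 0.05 it listed 1361 genes (7.56%), of which 603 were higher and 758 lower at hours. The median SE of a difference was 0.216. No single gene below therefore passed a test, and an exact permutation of 2 arrays against 2 cannot give a two-sided p under 0.333. The genes and groups are described by the value on each array, by whether the sides overlapped, and by counts set beside the percentages just given.

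Most of the 2-fold genes, like most genes at large, lay within 2-fold of vehicle on both days arrays. A smaller share of the 2-fold genes lay past 2-fold on both hours arrays. Of the 206 higher genes, 130 lay within 2-fold of vehicle on both days arrays and 58 were more than 2-fold from vehicle on both hours arrays. Of the 267 lower genes, 179 lay within 2-fold on both days arrays and 73 were past 2-fold on both hours arrays. Over all measured genes, only 409 were 2-fold above and 301 2-fold below vehicle at 1 day. At 14 days these were 390 and 382. The 2-fold genes were thus less often near vehicle at days than genes at large, and their counts do not show a return to vehicle. In 44 of the higher and 69 of the lower genes the hours arrays lay on one side of vehicle and the days arrays on the other. The array at 2 h was the farther of the hours pair in 113 of the 206 higher genes and 148 of the 267 lower genes. Just inside the 2-fold limit lay P2RY6, a nucleotide receptor gene, at 1.002, and just outside it MCU, the mitochondrial calcium uniporter, at -0.9997. Most 2-fold genes rested on 1 feature of the array (170 of 206 and 203 of 267), and in 12 higher and 29 lower genes with 2 or more features all features agreed that the sides did not overlap.

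**Figure D1:**
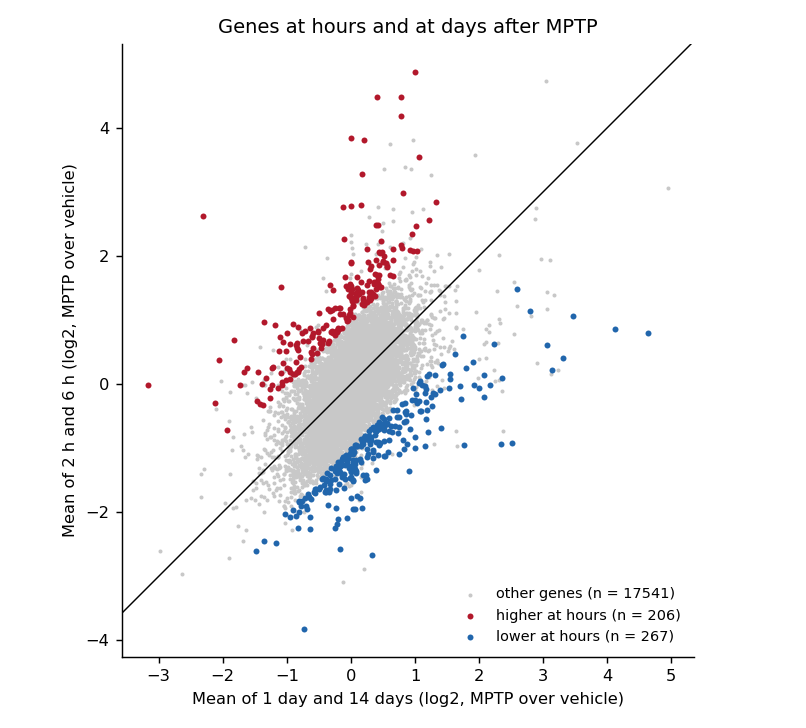
Mean log2 ratio of MPTP over vehicle at 2 h and 6 h (vertical) against the mean at 1 day and 14 days (horizontal), 1 point per gene. Coloured points are the 206 genes at least 2-fold higher and the 267 at least 2-fold lower at hours whose arrays did not overlap, and the line marks equal values.

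Some genes were read by several features, and each feature placed the hours arrays on the same side of the days arrays. The size of the difference could still vary between features of a gene, and the gene's value is their median. On the higher side, CKB, the brain creatine kinase that buffers ATP, read 1.54 at 2 h and 1.74 at 6 h, against 0.44 at 1 day and 0.41 at 14 days. Its difference was 1.21 (SE 0.17, 2 features), with the hours arrays close together and far above the days arrays. PIP5K1C, a kinase that makes the phosphoinositide used in synaptic vesicle recycling, read 1.65 and 0.86 at hours against 0.27 and 0.06 at days, a difference of 1.09 (features 1.32 and 0.86). The zinc finger gene ZNF575 read 1.13 and 0.36 at hours against -1.14 and -0.07 at days, and its difference of 1.36 drew on a low value at 1 day. Its features differed by 2.04 and 0.67, so only the first passed 2-fold. ING1, a chromatin reader of the growth inhibitor family, read 0.34 and 0.12 at hours against -1.55 and -0.06 at days, so that its difference of 1.04 came mostly from the array at 1 day. It also came mostly from 1 feature, at 1.90, while the other differed by 0.17. THBS1, which encodes the matrix glycoprotein thrombospondin, and VWA1, a matrix protein gene, were high at 2 h alone: THBS1 read 2.86 at 2 h and between -0.17 and 0.20 on the other 3 arrays. VWA1 read 3.23 at 2 h and between 0.21 and 0.44 on the other 3 arrays. In both genes 1 feature gave the 2-fold difference: the features of THBS1 differed by 2.77 and 0.44, and those of VWA1 by 2.44 and 0.60.

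On the lower side, 3 such genes were read by 10 features each. ZZZ3, a subunit of a histone acetyltransferase complex, read -1.51 at 2 h and -1.34 at 6 h, against 0.10 at 1 day and -0.37 at 14 days, a difference of -1.29 (SE 0.23). LMO2, a transcriptional adaptor of blood and endothelial cells, read -0.85 and -0.58 at hours against 0.31 and 0.45 at days, a difference of -1.09. RPAP3, a co-chaperone that assembles RNA polymerase II, was low on every array: -2.27 and -1.65 at hours against -0.76 and -1.04 at days. The 10 features of each of these genes spread little around the gene's difference, with SDs of 0.11 for ZZZ3, 0.07 for LMO2 and 0.06 for RPAP3, but they came from the same 4 RNA samples and say nothing of the spread between animals.

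SCLT1, a gene of the distal centriole, read -0.56 at 2 h and -1.31 at 6 h against 0.96 at 1 day and 0.80 at 14 days, with a difference of -1.81. Both features of SCLT1 placed the hours arrays below the days arrays. The long noncoding RNA CHASERR, which lies beside and restrains CHD2, read -1.23 and -1.43 at hours against -0.07 and 0.19 at days, with features at -2.25 and -0.52. STK35, a serine/threonine kinase gene, read 1.13 at 1 day and 2.27 at 14 days, against -0.32 and 0.25 at hours. Its features were discordant in size: 1 read 1.99 and 4.25 at days and differed by -3.24, while the other read 0.27 and 0.30 and differed by -0.23. SEMA6D, an axon guidance semaphorin, read -1.76 and -0.84 at hours against -0.05 and 0.16 at days, so it was low at hours and near vehicle later. SPART, an endosomal protein gene mutated in a hereditary spastic paraplegia, read -1.73 and -1.84 at hours against -0.58 and -0.86 at days. PAIP1, which helps the poly(A)-binding protein start translation, MEX3C, an RNA-binding ubiquitin ligase, and SCRN3 differed by -1.06, -1.02 and -1.03. The features of PAIP1 differed by -1.54 and -0.57, those of MEX3C by -1.07 and -0.96.

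**Figure D2:**
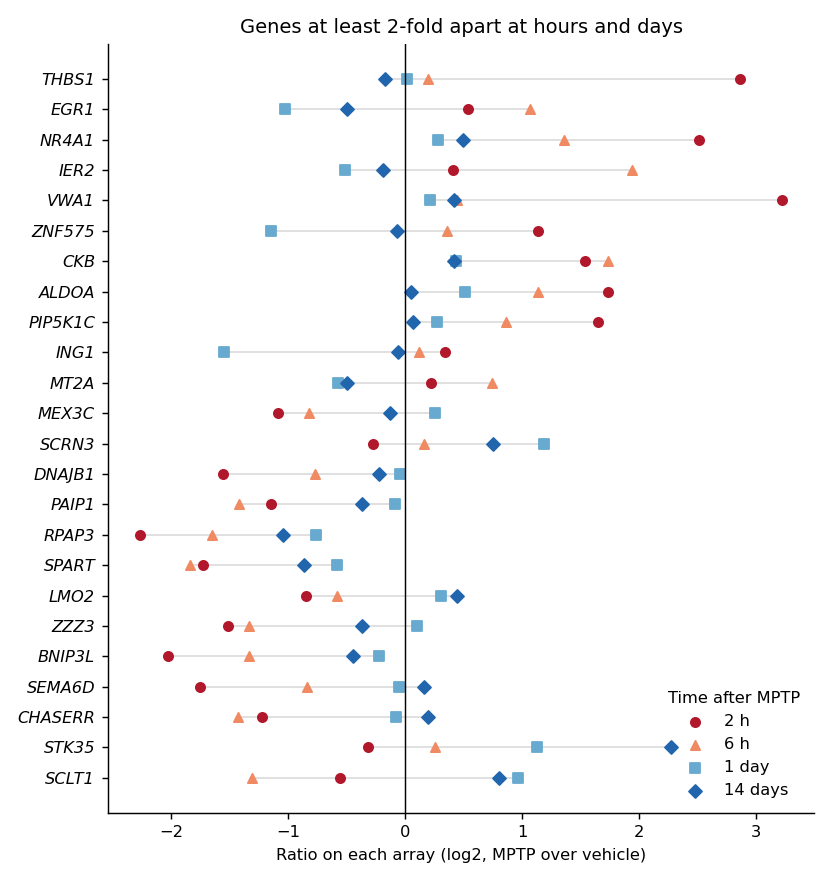
Log2 ratio of MPTP over vehicle on each of the 4 arrays (horizontal) for genes at least 2-fold apart whose features all placed the sides in the same order and for 3 stress genes of the fixed marker set (EGR1, NR4A1 and DNAJB1), with 1 symbol per animal. CKB reads 1.54 and 1.74 at hours against 0.44 and 0.41 at days, while THBS1 stands out at 2 h alone (2.86) and ING1 at 1 day alone (-1.55).

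Immediate early transcription factors, which neurons and glia switch on within minutes of a stimulus without new protein synthesis, were more often higher at hours than genes at large. Of 24 measured members, 10 (41.7%) had both hours arrays above both days arrays, against 21.2% of all genes, and 1 (4.17%) had them below, against 20.0%. The list's median difference was 0.15. On the single arrays it was 0.33 (2 h) and 0.36 (6 h), then 0.11 (1 day) and 0.04 (14 days). Without the array at 6 h the list's median was 0.06.

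EGR1, a zinc finger factor and standard marker of neuronal activation, read 0.54 at 2 h and 1.07 at 6 h, against -1.02 at 1 day and -0.49 at 14 days. Its difference was 1.56 (SE 0.30), and it lay above vehicle at hours and below it at days. NR4A1, an orphan nuclear receptor, read 2.51 and 1.36 at hours against 0.28 and 0.50 at days, a difference of 1.55. IER2 read 0.41 at 2 h and 1.94 at 6 h against -0.52 and -0.19 at days, and both of its features agreed. EGR4 read 1.18 and 0.97 at hours against 0.21 and 0.03 at days, just short of 2-fold. FOSL2 (4 features), JUND, KLF2, IER5 and IER3 were also higher on both hours arrays, with differences of 0.57, 0.55, 0.37, 0.37 and 0.19.

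FOS read 1.50 at 2 h, 1.32 at 6 h and 1.25 at 1 day and was listed at 0 at 14 days, so the array at 1 day was close to the hours arrays. JUN lay below vehicle on all 4 arrays, between -1.37 and -0.84, and its sides overlapped. FOSB and NR4A2, the nuclear receptor that also maintains dopamine neurons, overlapped as well, with differences of -0.12 and -0.18. The gene farthest the other way was EGR3, a relative of EGR1: it read 0.88 at 2 h and 0.34 at 6 h against 2.29 at 1 day and 3.82 at 14 days, a difference of -2.45 from 1 feature. Members of one family thus stood on opposite sides of the comparison.

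Metallothioneins, which hold zinc and copper and are induced by metals, oxidants and glucocorticoids, were the list with the greatest share of members higher at hours. Of 12 measured genes of the list, which included the metal-sensing factor MTF1 and the zinc exporter SLC30A1, 7 (58.3%) had both hours arrays above both days arrays and 1 (8.33%) below. The median difference was 0.41, and it lay between 0.30 and 0.66 in all 11 alternative settings. MT2A read 0.22 at 2 h and 0.75 at 6 h, against -0.58 at 1 day and -0.49 at 14 days, a difference of 1.02 (SE 0.24). MT1X, MT1G, MT1B and MT1H were also higher on both hours arrays, with differences of 0.83, 0.75, 0.73 and 0.66, and in each of them 6 h was the highest array.

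MTF1 read 0.48 and 0.67 at hours against 0.19 and 0.06 at days, and SLC30A1 read 0.65 and 0.30 against 0.17 and 0.13. MT3, the metallothionein of neurons and astrocytes, overlapped, with a difference of -0.15. MT1M went the other way at -0.92, which came from a value of -1.72 at 2 h. The metallothionein genes are near-identical copies, so features of one member may read RNA of another, and the members are not independent. Of 22 glucocorticoid-induced genes, MT2A included, 1 (4.55%) was higher at hours and 3 (13.6%) were lower without overlap. Over all genes the shares were 21.2% and 20.0%. FKBP5 differed by -0.10, but its 2 features read 0.70 and -1.08 at 2 h, and each overlapped between the sides. The clock gene PER1 overlapped, with a difference of -0.12. The part of glucocorticoids in the metallothionein values was not tested.

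Cytokines and acute phase genes held a few members high at 6 h. IL6, the cytokine that drives the acute phase response, read 0.53 at 2 h and 1.21 at 6 h, against -0.04 at 1 day and 0.06 at 14 days. CCL2, which recruits monocytes, read 1.22 at 6 h and between -0.02 and 0.09 on the other 3 arrays, so its sides overlapped. ISG15, a ubiquitin-like protein induced by interferon, read 1.70 at 6 h and between 0.11 and 0.23 on the other 3 arrays. TIMP1, an inhibitor of matrix metalloproteinases and a common marker of reactive tissue, read 1.76 and 1.28 at hours against 0.31 and 0.60 at days, a difference of 1.07. As lists, cytokines and chemokines (27 genes, median 0.20) had 6 members higher (22.2%) and 3 lower (11.1%). Acute phase and NF-kB target genes (23 genes, median 0.06) had 4 higher (17.4%) and 0 lower, and interferon-stimulated genes (32 genes, median 0.04) had 4 higher (12.5%) and 3 lower (9.38%). The higher shares of these 3 lists were close to or below that of all genes.

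Genes of glycolysis and of the hypoxia response stood on both sides of the comparison. GAPDH, a glycolytic dehydrogenase, read 1.93 at 2 h and 0.78 at 6 h, against 0.11 at 1 day and 0.05 at 14 days. ALDOA, the muscle-type aldolase, read 1.73 and 1.14 at hours against 0.52 and 0.05 at days, with both features in the same order and a difference of 1.15. ALDOC, the brain aldolase, and ENO2, the neuronal enolase, differed by 0.71 and 0.70 without overlap. In the other direction stood BNIP3L, a mitophagy receptor on the outer mitochondrial membrane: -2.03 at 2 h and -1.34 at 6 h against -0.23 at 1 day and -0.44 at 14 days, a difference of -1.35 over 2 agreeing features. Its relative BNIP3 differed by -0.69 and HIF1A, the oxygen-regulated transcription factor, by -0.93, both without overlap. HK1, the brain hexokinase, differed by -1.06, but 1 of its 2 features was listed at 0 on both hours arrays, and the other feature alone gave 0.51. Over the list of 34 genes, 6 were higher (17.6%) and 9 lower (26.5%), and the median was 0.02.

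Complex I, the target of MPP+, had members on both sides. Of 36 subunits, 9 (25.0%) were higher and 12 (33.3%) lower without overlap, and the median was -0.05. NDUFS8, an iron-sulphur subunit of the hydrophilic arm, read 2.41 at 2 h and 1.36 at 6 h, against 0.52 at 1 day and 0.57 at 14 days. NDUFA3, NDUFV3 (3 features) and NDUFS7 followed at 0.98, 0.96 and 0.80, and for each of these the 2 hours arrays stood above the days arrays, which were themselves above vehicle. NDUFB5, a subunit of the membrane arm, read -1.04 and -1.39 at hours against 0.20 and 0.11 at days, a difference of -1.36. NDUFB1, NDUFS1, NDUFA2 and NDUFV2 were lower by -0.77, -0.67, -0.67 and -0.64. Subunits of the hydrophilic arm stood on both sides, with NDUFS8, NDUFS7 and NDUFV3 higher and NDUFS1 and NDUFV2 lower.

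The other respiratory complexes leaned to lower values at hours. Of 36 subunits of complexes II to V, 10 (27.8%) were lower and 1 (2.78%) higher without overlap, although the list's median of -0.03 was close to that of all genes. COX5A, a nuclear-encoded subunit of cytochrome oxidase, read -0.59 and -0.25 at hours against 0.42 and 0.21 at days, and COX6C and COX7B differed by -0.59 and -0.58. The single higher subunit was UQCRC1, a core protein of complex III, at 0.70. Mitochondrial ribosomal proteins had 15 of 72 members higher (20.8%) and 20 lower (27.8%), with MRPL20 and MRPL15 past 2-fold at -1.29 and -1.02.

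The machinery of protein synthesis and breakdown was lower at hours more often than other genes. Of 67 measured cytosolic ribosomal protein genes, 28 (41.8%) had both hours arrays below both days arrays and 12 (17.9%) above, and none of them passed 2-fold. The median difference was -0.25. On the single arrays the median ran from -0.43 at 2 h through -0.08 at 6 h to 0.00 and 0.02 on the days arrays, so the array at 2 h carried most of it, and without 2 h the median was -0.09. RPS15A, of the small subunit, read -1.26 and -0.46 at hours against 0.10 and 0.10 at days over 4 features. RPL30, of the large subunit, read -0.67 and -0.96 against 0.13 and 0.05. RPL21, with 14 features of which 13 agreed, read -0.89 and -0.70 against 0.00 and -0.45. RPL36 and RPS15 went the other way, at 0.79 and 0.65. Ribosomal protein genes have many near-identical pseudogene copies, which the features cannot be assumed to tell apart.

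Proteasome subunits showed 10 of 31 members lower (32.3%) and 2 higher (6.45%), against 20.0% and 21.2% of all genes. The median difference was -0.16. On the single arrays the list's median was -0.28 (2 h), -0.19 (6 h), -0.01 (1 day) and -0.19 (14 days). The arrays at 6 h and 14 days were thus nearly equal, and the array at 1 day stood highest. PSMD12, a lid subunit of the regulatory particle, read -1.17 at 2 h and -0.87 at 6 h, against -0.01 at 1 day and -0.15 at 14 days. PSMC6, an ATPase of its base, was below vehicle on all 4 arrays, at -1.93 and -1.43 against -0.74 and -1.13. PSMA2 and PSMA6, alpha ring subunits, differed by -0.71 and -0.67. Without the array at 1 day the list's median was -0.07.

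Heat shock proteins and co-chaperones had 8 of 24 members lower (33.3%) and 3 higher (12.5%), against 20.0% and 21.2% of all genes. The median difference was -0.20. On the single arrays the list's median was -0.54 (2 h), -0.50 (6 h), -0.19 (1 day) and -0.47 (14 days). The array at 14 days was thus close to the hours arrays, and the array at 1 day stood apart. DNAJB1, the co-chaperone of HSP70 that heat shock induces, read -1.56 at 2 h and -0.77 at 6 h, against -0.05 at 1 day and -0.22 at 14 days. HSPH1, a nucleotide exchange factor for HSP70, read -1.49 and -1.15 against -0.63 and -0.65, a difference of -0.68. HSPA1A, the inducible HSP70, was below vehicle throughout and differed by -0.17. Of its 3 features, 1 differed by -0.87 without overlap, and the others overlapped at -0.03 and -0.08. The small heat shock proteins HSPB8 and HSPB1 and the master regulator HSF1 stood on the other side, at 0.87, 0.83 and 0.71. With the 4 arrays scaled to one spread the list's median turned to 0.01.

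SR and HNRNP splicing factors, which bind pre-mRNA and choose splice sites, had 12 of 37 members lower (32.4%) and 2 higher (5.41%). RSRP1 read -2.67 at 2 h and -1.83 at 6 h, against -0.64 at 1 day and -1.02 at 14 days, a difference of -1.42, although 1 of its 2 features overlapped. CLK4, a kinase that phosphorylates SR proteins, differed by -1.01, but 1 of its 2 features was listed at 0 at hours. SRSF4, SRSF3 and SRSF7 differed by -0.83, -0.71 and -0.69. The list's median of -0.11 was not stable: it became 0.05 without the array at 1 day and 0.00 with the arrays scaled to one spread.

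**Figure D3:**
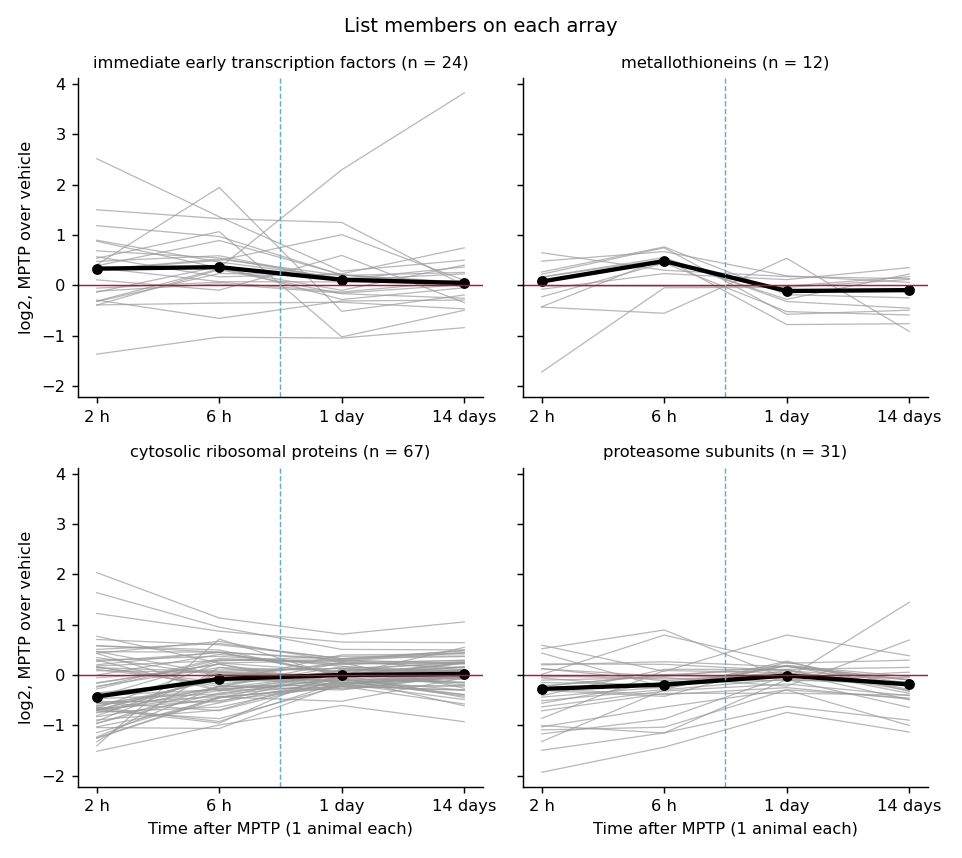
Log2 ratio of MPTP over vehicle of each member (grey lines) and the list's median (black) on the 4 arrays, for 4 lists. Immediate early factors lie higher at 2 h and 6 h (medians 0.33 and 0.36) than at 1 day and 14 days (0.11 and 0.04), metallothioneins are highest at 6 h, and ribosomal proteins are lowest at 2 h (-0.43).

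Enzymes that handle oxidants and glutathione were divided, with 8 of 33 lower (24.2%) and 5 higher (15.2%). GSTP1, the pi-class glutathione transferase, read -0.46 at 2 h and 0.06 at 6 h, against 1.86 at 1 day and 2.28 at 14 days, so it was near vehicle at hours and high later. GSTM1, of the mu class, read -2.85 at 2 h and between -0.19 and 0.03 on the other 3 arrays, and its difference of -1.55 came from 2 h. PRDX4, a peroxiredoxin of the endoplasmic reticulum, and NFE2L2, the transcription factor that drives antioxidant genes, differed by -0.77 and -0.66 without overlap. GPX1 and GPX4, glutathione peroxidases, were higher at hours by 0.58 and 0.52. HMOX1, the inducible haem oxygenase, differed by -0.02.

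Some of the widest gaps between hours and days belonged to genes read by 1 feature. IL17C, an epithelial cytokine of the interleukin 17 family, read 4.80 at 2 h and 4.15 at 6 h, against 0.51 at 1 day and 0.30 at 14 days. Its difference of 4.07 (SE 0.28) had the smallest unadjusted p of all genes in limma, 0.000121, with an adjusted p of 0.646. IL17RC, a receptor chain of the same cytokine family, read 4.63 and 4.32 at hours against 1.46 and 0.11 at days. PITPNM1, a phosphatidylinositol transfer protein gene, read 5.69 and 4.05 against 0.59 and 1.41. For these 3 genes both hours arrays were more than 10 times above vehicle by 1 feature each, and signal over background was not given, so whether the vehicle spot was dim is unknown.

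TOP2A, the topoisomerase of dividing cells, read 4.50 at 2 h and 0.76 at 6 h, against -1.25 at 1 day and -3.36 at 14 days, so its values were far apart within each side (SE 1.51). POLR2J, a subunit of RNA polymerase II, read 2.19 and 1.90 against 0.44 and 0.48, and MCM3, of the replicative helicase, read 2.11 and 1.46 against 0.40 and 0.20. MAD1L1, a spindle checkpoint gene, read 1.30 and 0.90 against -0.57 and -0.44. PHF5A, a component of the splicing factor SF3B, read 0.74 and 0.61 against -0.75 and -0.61, and P2RX6, an ATP-gated channel subunit, 0.64 and 0.56 against -1.08 and -0.64. In the last 3 genes the hours arrays lay above vehicle and the days arrays below it.

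On the lower side, HSD11B1, which regenerates active cortisol from cortisone, read -0.88 at 2 h and -1.32 at 6 h, against 0.66 at 1 day and 0.84 at 14 days, a difference of -1.85 (SE 0.23). MYL5, a myosin light chain gene, read 1.54 and 0.05 against 5.05 and 4.22, so its difference of -3.84 came from high days values. CASP6, an executioner caspase that acts in axons, read -1.78 and -0.27 at hours against 0.36 and 0.33 at days. TIE1, an endothelial receptor, read 3.85 at 14 days and between -1.12 and -0.34 on the other arrays, so its difference of -2.70 rested on 1 array. ATG13, of the autophagy initiation complex, differed by 1.01 only through a value of -1.66 at 1 day.

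Dopamine neuron markers did not separate the sides as a group. In bulk tissue such as this strip, fewer cells of a type and less RNA per cell cannot be told apart. Of 25 markers, 6 (24.0%) were higher and 3 (12.0%) lower at hours without overlap, and the median difference was -0.01. TH, the tyrosine hydroxylase that limits dopamine synthesis, read 0.90 at 2 h and 0.64 at 6 h, against 0.39 at 1 day and 0.50 at 14 days. Both features of TH had the hours arrays above the days arrays, and the difference of 0.32 was 1.25-fold (SE 0.18). LMX1B, a transcription factor of dopamine neuron development, read 1.76 at 2 h and between -0.20 and 0.23 on the other 3 arrays. KCNJ6, the GIRK2 channel of ventral nigral neurons, read -0.19 and 0.80 at hours against 1.01 and 0.99 at days.

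FOXA1, a developmental regulator of these neurons, differed by -0.62, with 8 of 11 features in agreement. DDC, SLC18A2 and ALDH1A1, which make, store and detoxify dopamine or its products, overlapped between the sides, with differences of -0.43, -0.11 and 0.04. All 19 measured genes of inherited parkinsonism had a median of 0.00, with 3 higher and 3 lower (15.8% each). Among them FBXO7, a ubiquitin ligase subunit, differed by -0.75, and PARK7 overlapped at -0.15.

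Markers of other cells moved in both directions. Astrocyte markers had 4 of 16 higher (25.0%) and 5 lower (31.2%): GJA1, the gap junction protein connexin 43, read -1.34 and -0.88 at hours against -0.33 and 0.19 at days, and S100B, a calcium-binding protein, differed by -0.99. APOE, the lipid carrier, lay on the other side at 0.72. GFAP, the astrocyte filament, differed by 0.43, but 1 of its 2 features was listed at 0 on all 4 arrays, and the other alone differed by 0.88. That other feature was below vehicle throughout, at -1.05 and -0.73 at hours against -1.84 and -1.69 at days. Microglia markers had 4 of 16 higher (25.0%) and 0 lower. TYROBP, the adaptor of microglial receptors, read 2.01 and 0.86 at hours against 0.19 and 0.44 at days. Its difference of 1.13 was the largest of the list. Of the 16 members 9 differed above 0 and 7 below, down to -0.81, and the list's median was 0.08. The list's medians on the arrays overlapped between the sides.

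Oligodendrocyte markers had 3 of 15 higher (20.0%) and 2 lower (13.3%). ERMN, a late myelination gene, differed by -0.93 over 2 features, and MBP, myelin basic protein, overlapped at -0.33. Erythrocyte markers had 3 of 10 higher and 3 lower. HBA1, an alpha globin gene, read 2.66 and 1.31 against 0.92 and 1.12, above vehicle on all 4 arrays. Endothelial and pericyte markers had 3 of 20 higher (15.0%) and 4 lower (20.0%). The astrocyte list had medians of -0.35 and -0.07 on the hours arrays and of 0.01 and 0.06 on the days arrays. The erythrocyte list had medians of 0.60 and 0.11 at hours and of 0.39 and 0.81 at days, so the medians of the sides overlapped. The part of cell content in the differences of other genes was not tested.

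**Figure D4:**
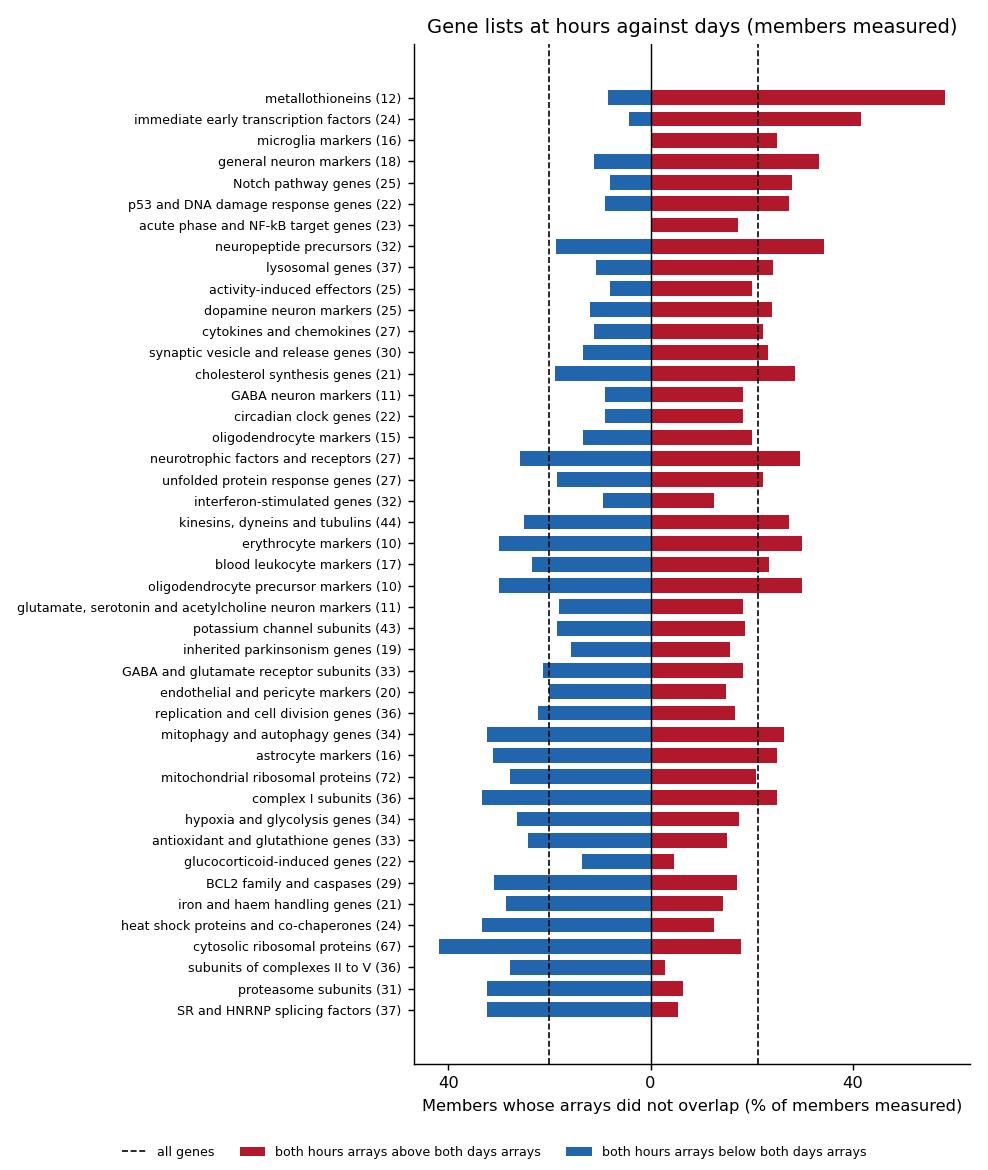
Percentage of the measured members of each of 44 gene lists whose 2 hours arrays both lay above (right, red) or both below (left, blue) both days arrays, with the number of members in brackets. Dashed lines are the shares of all genes, 21.2% and 20.0%. Metallothioneins (58.3%) and immediate early factors (41.7%) reach farthest to the right and ribosomal proteins (41.8%) farthest to the left.

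The direction of a gene's difference also went with that of its chromosomal neighbours. Gene order was taken from the marmoset RefSeq gene table, and each of 15312 genes was compared with the median difference of its neighbours from the 10th to the 30th place in both directions. The genes were ordered by that median and divided into 5 equal groups. In the group with the lowest neighbours, the median difference was -0.10, and 68 genes (2.22%) were at least 2-fold lower and 19 (0.620%) at least 2-fold higher without overlap. In the group with the highest neighbours, the median was 0.11, with 27 genes (0.881%) lower and 61 (1.99%) higher. The grouping used this same difference, so a wider trend at hours than at days follows from it. From the lowest to the highest group, the median ratio ran from -0.16 to 0.23 at 2 h and from -0.10 to 0.18 at 6 h, against -0.03 to 0.07 at 1 day and -0.05 to 0.10 at 14 days.

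After the median of the neighbours was subtracted, the metallothionein median was 0.30 over 5 genes, the immediate early median 0.11 over 24, the ribosomal median -0.28 over 65 and the proteasome median -0.23 over 31. The medians of these lists kept their direction, that of the metallothioneins over only 5 of its 12 measured genes. The part of position, or of any sequence property that goes with it, in the single genes was not tested.

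**Figure D5:**
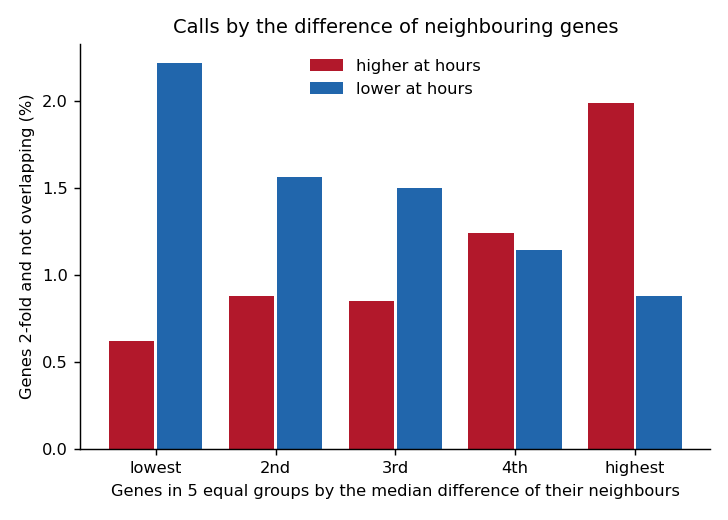
Percentage of genes at least 2-fold higher (red) or lower (blue) at hours without overlap, in 5 equal groups of 15312 genes ordered by the median difference of their neighbours. The share lower falls from 2.22% in the lowest group to 0.881% in the highest, while the share higher runs from 0.620% to 1.99%.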

How the data were processed

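The deposited table held 1 value per feature for each of 4 two-colour arrays, 1 MPTP animal each against the same vehicle animal. The authors' values were read here as log10 ratios of Cy5 (MPTP) over Cy3 (vehicle). This reading rests on the dyes in the labels and on the values: column medians ran from 0 to 0.00633 and no value passed 2 in size. Formed the other way, every sign would turn. The sources used here do not give the authors' software, background correction or normalization, and without spot intensities signal over background is unknown. The number of arrays limits the precision.

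Each value was scaled to log2 and each array was centred on its median over 43931 features. Features with 1 symbol in the platform annotation (29033) gave 18014 genes by the median over features, 10603 of them from 1 feature. It is not known which features repeat a probe. The difference was tested on these log2 values with limma 3.58.1 in R 4.3.3, hours against days with no covariate. Benjamini-Hochberg adjustment was made over all genes. A prior run on values shuffled between genes, with known differences added, checked the size of the recovered differences and not limma's calls. Tables were handled in Python 3.11.15 with pandas 2.3.3. P-values measure only the spread between these samples, which within a side differ in time.

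Of 1248 genes on 44 lists, 1160 were measured. The others were not analysed here. Genes were named by a rule: those with agreeing features and the widest gaps between sides, the widest gaps of all genes, up to 4 members of a list past 2-fold, and a fixed set of markers. Other list members were given as examples after their values were seen. Members, lists and rules were chosen with earlier results of these data known. The marmoset RefSeq table (assembly calJac240_pri) served for names and gene order only. A planned description by promoter, protein and gene length was not made, and no sequences are shown. Alternatives were other centring, scaling, summaries, filters, thresholds, limma settings, and each array left out. Subtraction of a regional median was added after seeing the data.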

Additional observations from a re-analysis of the deposited data

Results flagged for a closer look

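In 21 of the 86 genes chosen by the naming rule, and in 5 of the 44 gene lists, both hours arrays lay on one side of vehicle and both days arrays on the other. The naming rule favoured wide gaps between these same arrays, which makes opposite sides more likely. The same held for 44 of the 206 higher and 69 of the 267 lower genes, and the share over all genes was not counted. For the genes, limma's adjusted p for the difference was 0.646 or above, and for the medians of lists the difference was not tested. About the side of vehicle itself, 1 vehicle animal gives no spread.

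Above vehicle at hours and below it at days were EGR1 (difference 1.56), IER2 (1.53), MT2A (1.02), TOP2A (4.93), MAD1L1 (1.61), P2RX6 (1.46), ZNF575 (1.36), PHF5A (1.35) and ING1 (1.04). Below vehicle at hours and above it at days were the hypothalamic peptide genes AGRP (-1.32) and CRH (-1.27), the cortisol-regenerating enzyme HSD11B1 (-1.85), the glutamate receptor subunit GRIA2 (-1.02), CASP6 (-1.37), CLK4 (-1.01), GSTM1 (-1.55), LMO2 (-1.09), SCLT1 (-1.81), the complex I subunit NDUFB5 (-1.36) and the mitochondrial ribosomal proteins MRPL15 (-1.02) and MRPL20 (-1.29). AGRP read -0.80 and -0.66 at hours against 0.83 and 0.36 at days, and CRH read -0.38 and -0.65 against 0.71 and 0.79. GRIA2 read -0.45 and -1.17 against 0.38 and 0.05, but only 1 of its 3 features lay on opposite sides of vehicle. The value of a gene is the median over its features, and single features of ING1, ZNF575 and MRPL20 did not do so either. Of the features of CLK4, 1 was listed at 0 at hours and the other lay below vehicle on all 4 arrays. GSTM1 was near vehicle at days, at 0.02 and 0.03.

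The medians of metallothioneins (0.41), activity-induced effectors (0.18), circadian clock genes (0.15) and lysosomal genes (0.10) were above vehicle at hours and below it at days, and that of astrocyte markers (-0.11) the reverse. Some of these array medians lay very close to vehicle. Lysosomal genes were at -0.004 at 1 day, and activity-induced effectors at -0.05 at 1 day and -0.03 at 14 days. Astrocyte markers were at 0.006 at 1 day. The medians of all genes lay between 0.01 and 0.03 on the 4 arrays, so the side of vehicle of those lists is not clear.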

How the results depend on the processing

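limma called 0 genes in every setting, with a smallest adjusted p of 0.278 without the array at 6 h. Of the 206 higher and 267 lower genes, 46 and 56 passed 3-fold, 36 and 64 had 2 or more features, and 3 and 3 had every feature past 2-fold without overlap. With 1 array left out, separation of 3 arrays is easier, and the counts ran from 371 to 605 higher and from 414 to 787 lower, sharing 134 to 160 of the 206 and 172 to 217 of the 267. Arrays scaled to one spread gave 203 and 256 genes but shared only 120 and 167 with the main counts. The other settings stayed within 1.5 times the main counts.

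Of 888 values of named genes, 782 kept their direction and their side of the 2-fold rule, 92 fell short of it, 13 moved and 1 reversed: HK1 was 0.51 with exact zeros taken as not measured. Of 484 list medians 407 kept their sign, and 14 of 44 lists kept it in all 11 settings. The heat shock list turned in 1 setting and the splicing list in 2. The causes were not tested. No paired analysis was possible because the labels give the samples no shared replicate numbers. Dim spots could not be filtered, since the deposited table has no intensities.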

Other observations

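Beta tubulins, the subunits that with alpha tubulins build microtubules, were all higher at hours. All 7 measured members (TUBB, TUBB2A, TUBB2B, TUBB3, TUBB4A, TUBB4B and TUBB6) had both hours arrays above both days arrays, with differences from 0.37 to 0.95, whereas all 4 alpha tubulins overlapped, with differences from 0.03 to 0.14. TUBB3, the neuronal form, read 1.62 at 2 h and 1.13 at 6 h, against 0.62 at 1 day and 0.55 at 14 days. TUBB6 read -0.06 and 0.93 against -0.44 and -0.59. The family was picked after its values were seen and its members are near-identical in sequence. Of 14 dynein and dynactin subunits, 5 were lower and 2 higher, with DYNC1LI2, a light intermediate chain, at -0.96. Of 15 kinesins, 5 were lower and 3 higher. The whole list of 44 kinesins, dyneins and tubulins had 27.3% higher and 25.0% lower, with a median of 0.05. Over all genes the shares were 21.2% and 20.0%.

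Genes of the vesicle cycle and of receptors differed by member. DNM1, the dynamin that pinches off synaptic vesicles, read 1.08 and 0.97 at hours against -0.01 and 0.16 at days. SYN1 and RAB3A, vesicle proteins, both differed by 0.74, while SYN2 differed by -0.58. GRIN2D, an NMDA receptor subunit, read 1.74 and 0.83 against 0.22 and 0.29. The potassium channel genes KCNA3 and KCNJ16 differed by -1.13 and -1.11. BMAL1, the core activator of the circadian clock, read -1.52 and -1.57 against -0.57 and -0.61, while its repressor NR1D1 differed by 0.58. TNFRSF10B, a death receptor gene under p53, read 2.86 at 2 h and 0.93 at 6 h against 0.39 and 0.60, with 1 of 2 features overlapping and the other at 5.36 at 2 h. PHLDA3 and BBC3, other p53 targets, differed by 0.81 and 0.57. NOTCH3, the Notch receptor of mural cells, read 1.08 and 1.02 against 0.21 and 0.02. ATP6V0D1, of the lysosomal proton pump, differed by 0.73.

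Among 71 genes read by 10 or more features, 28 were lower and 7 higher at hours without overlap. Over all genes the shares were 20.0% lower and 21.2% higher. In 0 of the 71 genes every feature was higher, and in 8 every feature was lower. Besides ZZZ3, LMO2 and RPAP3 these were SMARCAD1 (-0.75), TRMT10C (-0.65), NOC3L (-0.63), PPIP5K2 (-0.55) and WRN (-0.49). Over the 7411 genes with 2 or more features, 3135 did not overlap, and in 671 every feature agreed.

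The 14898 features with no symbol or several held 258 (1.73%) at least 2-fold higher and 375 (2.52%) at least 2-fold lower at hours without overlap, close to the 475 (1.64%) and 695 (2.39%) of the 29033 named features.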
